A study of Arabidopsis thaliana with 14 samples.

Results

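Cleavage and polyadenylation end every messenger RNA: the cleavage and polyadenylation specificity factor (CPSF) recognises the poly(A) signal, the transcript is cut, and a poly(A) tail is added. A gene with several such sites can end its transcripts at a proximal site, nearer to the start of the gene, or at a distal site, nearer to its end. In Arabidopsis the locus CPSF30 (AT1G30460) encodes a short protein and a longer one, CPSF70, which adds a YTH domain that binds N6-methyladenosine (m6A), the most common internal mark of plant messenger RNA. The comparison asks whether poly(A) site choice differs when this reader is lacking, and it rests on 4 of the 14 samples of the series: 2 poly(A) libraries of the wild type Col0 and 2 of the cpsf70 mutant, all from 12-day seedlings. The libraries were made by A-seq2, whose primer for reverse transcription sits on the poly(A) tail. A tag is therefore read as the end of a transcript, which was not tested for single sites.

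The sources used here do not name the mutant allele, and the labels state no further change or treatment in either genotype. Replicates are not stated to be separate plantings, so p-values rest only on the spread among these samples, which may be technical. The deposited tables list poly(A) clusters with a level in TPM. Nuclear clusters of the 5 chromosomes lying on the same strand with at most 24 nt in between were joined, and a site was kept where all 4 tables list it. This gave 13668 of 30191 joined sites. Of these, 12482 sites (91.3%) lay in a gene and 1186 outside genes. The 4 sites that overlap rRNA genes held 3.76% and 5.13% of the summed site TPM in Col0 and 4.12% and 4.43% in cpsf70. The sites in genes formed 9794 gene totals, and 1966 genes had a pair of sites whose use could be compared. The median site was 63 nt wide and lay 140 nt before the gene end (quartiles 65 and 417 nt).

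The step between low values put 1 read at 0.319 and 0.308 TPM in the Col0 libraries and at 0.257 and 0.164 TPM in the cpsf70 libraries, so that 3 TPM stand for 9.41, 9.74, 11.7 and 18.3 reads. Between 75.7% and 84.1% of the low values were whole multiples of that step within 0.01 read, so the tables hold fractional reads and no count test was run. Across sites the libraries of a genotype correlated at r = 0.905 and 0.908 on the log2 scale, and libraries of different genotypes at 0.841 to 0.892. In the authors' deposited table of RNA-seq the locus itself had 5.58 and 4.87 FPKM in the Col0 libraries and 0.542 and 0.593 FPKM in those of cpsf70, and none of its poly(A) sites was analysed here. All 5 leaf markers had sites, and 4 of 5 root markers did, with the root glucosidase PYK10 between 1088 and 1361 TPM in the 4 libraries. None of the 5 flower markers and none of the 6 seed markers had a site in all 4 tables. In whole seedlings, fewer cells of a type and less RNA per cell cannot be told apart.

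The tables of the genotypes were not built alike, and this touches the results below. Clusters of Col0 are at most 51 nt wide and listed per library from 3 TPM upward. Both cpsf70 tables list the same 29896 clusters, up to 147 nt wide, with the 3 TPM minimum holding in replicate 2 only. In 284 of the 13668 sites (2.08%) the largest cluster of a Col0 table is overlapped by no cluster of a cpsf70 table, although the joined site is listed there through a neighbouring cluster. The nearest cpsf70 cluster then lay a median of 8 nt away. The reverse, a largest cpsf70 cluster that no Col0 cluster overlaps, was seen in 70 sites (0.512%). Whether such a cluster was not used in cpsf70 or was only not listed cannot be told apart from the tables, and its part in a result is shown by values beside that result.

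Site levels were lower in cpsf70 far more often than higher among the calls, while the typical site hardly differed. By limma on log2(TPM + 1), with Benjamini-Hochberg adjusted p below 0.05, 84 sites rose (0.615% of the sites tested) and 217 fell (1.59%). At an unadjusted p below 0.05 the counts were nearly equal, 590 higher and 619 lower. The median change over all sites was 0.04, and one standard error of 0.49 applied to every site. The p of a site therefore depended on its change alone and not on the spread of its own libraries. The genotypes did not overlap in 69 of the sites that rose and in 175 of those that fell, against 40.3% of all sites. With any of the 4 libraries left out, 5 of the rises and 52 of the falls were still called. After TPM had been rescaled by median ratios, 1 site rose and 33 fell, and 34 of the 301 sites were still called.

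Both ends of this distribution held single short sites with very large values. A site in AT3G25510, a gene of the TIR-NBS-LRR class of immune receptors, lay 1475 nt before the gene end and stood at 59.2 and 23.7 TPM in Col0 and at 1143 and 1455 TPM in cpsf70. Both cpsf70 libraries were above both Col0 libraries, and the site rose by 5.07 on the log2 scale (limma, adjusted p below 0.05 with any library left out, and lost after rescaling by median ratios). A site outside genes at chr2:10760955-10760973 (TAIR10) was at 4.53 and 9.07 TPM in Col0 and at 798 and 574 TPM in cpsf70, a change of 6.51. The largest fall was at a site in AT4G00695, 1583 nt before the gene end, with 2249 and 3287 TPM in Col0 against 1.44 and 3.08 TPM in cpsf70. Its libraries were far apart by genotype and close within each.

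Other large calls rested on 1 library. The site of AT5G56220 was at 4754 TPM in Col0 replicate 1 and at 12.1 TPM in Col0 replicate 2, beside 4.81 and 7.39 TPM in cpsf70. Its change of -5.16 was -0.90 without that first library. The site of AT3G14600 followed the same course: the Col0 libraries had 4457 and 12.6 TPM, those of cpsf70 3.83 and 12.1 TPM, and the change without Col0 replicate 1 was -0.78. For AT1G20750 it was Col0 replicate 2 that stood out, at 1020 TPM against 7.17 TPM in replicate 1, beside 1.42 and 3.86 TPM in cpsf70. A site of PORB, a protochlorophyllide oxidoreductase of chlorophyll synthesis, rose inside the gene, 742 nt before its end. It was at 11.8 and 3.08 TPM in Col0 and at 25.5 and 53.02 TPM in cpsf70, a change of 2.39 in which the genotypes did not overlap. It was not called after rescaling, without Col0 replicate 2 (1.56, limma, adjusted p = 0.368) or without cpsf70 replicate 2 (1.87, adjusted p = 0.098).

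Position along the gene separated the sites. Sites close to the gene end were called seldom and mostly as falls, and sites more than 300 nt before it were called more often and in both directions. Of 6261 sites within 150 nt before the gene end, 8 rose and 63 fell, which is 1.13% called against 2.2% of all sites. Of 2103 sites 150 to 300 nt before the end, 2 rose and 24 fell. Between 300 and 1000 nt, 29 of 2259 sites rose and 31 fell (2.66% called), and beyond 1000 nt 28 of 1562 rose and 51 fell (5.06%). Outside genes, 17 of 1186 sites rose and 45 fell (5.23%). Of the 297 sites up to 200 nt beyond the gene end, none rose and 3 fell.

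In genes the median change was largest at 300 to 1000 nt before the end. It was 0.03 within 150 nt of the end, 0.06 at 150 to 300 nt, 0.20 at 300 to 1000 nt and 0.16 over 1000 nt, beside -0.06 beyond the end and -0.19 outside genes. Rescaling by median ratios moved the median of all sites from 0.04 to -0.01, so the small medians within 300 nt of the end carry no direction. Of the sites 300 to 1000 nt before the end, 64.0% had a higher mean in cpsf70, against 53.9% of all sites and 36.6% of sites outside genes. The medians per library show how far the genotypes stood apart. At 300 to 1000 nt the median deviation from the mean of the site was 0.04 and -0.24 in Col0 replicates 1 and 2 and 0.18 and 0.01 in the cpsf70 replicates. Here the Col0 and cpsf70 libraries overlapped, since Col0 replicate 1 lay above cpsf70 replicate 2. Over 1000 nt before the end the medians were -0.04 and -0.16 in Col0 and 0.08 and 0.12 in cpsf70. In this class both cpsf70 libraries were above both Col0 libraries. Close to the end the replicates differed more than the genotypes, with 0.14 and -0.15 in Col0 and 0.20 and -0.17 in cpsf70 within 150 nt.

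**Figure D1:**
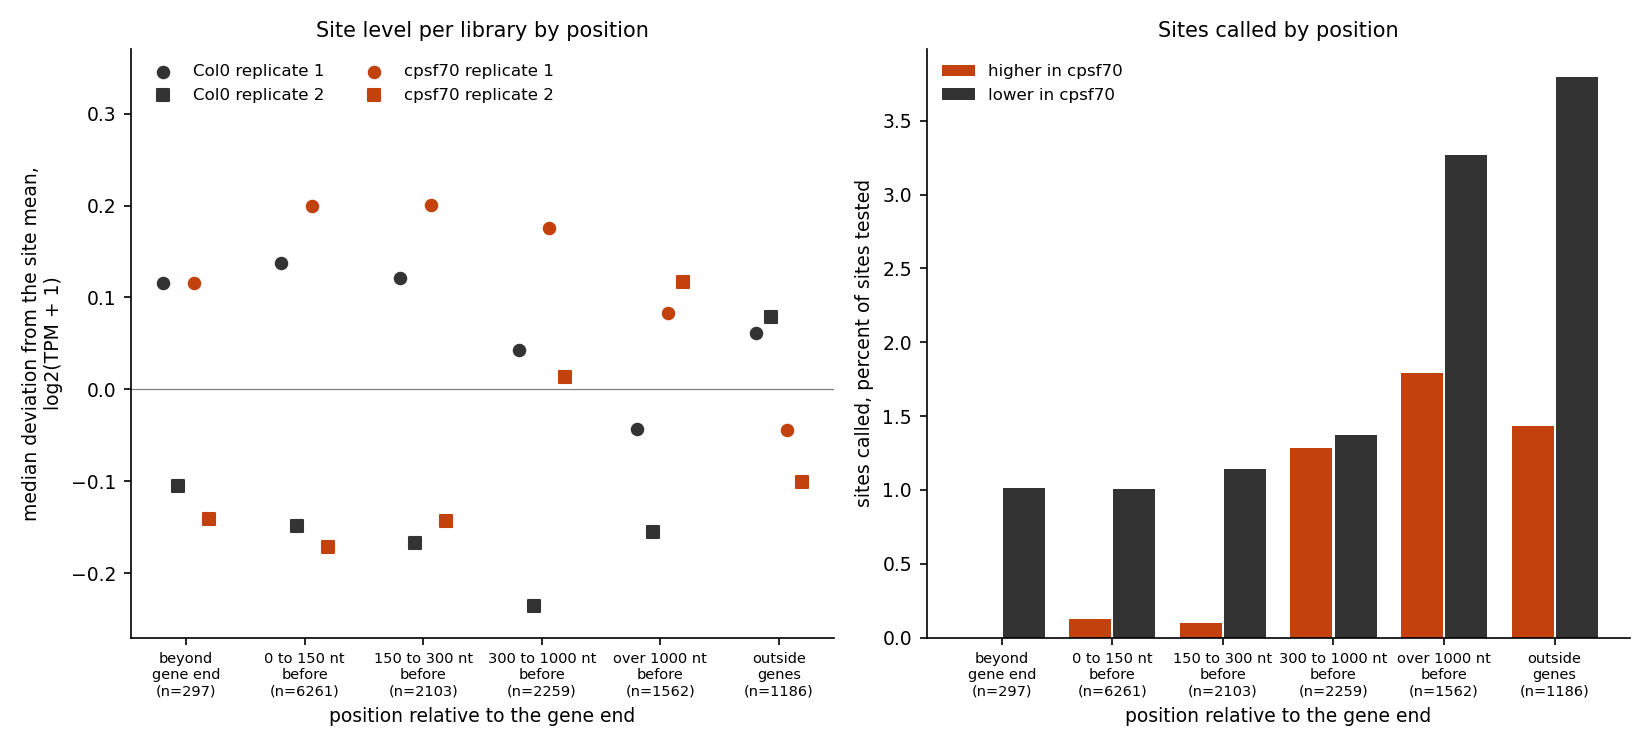
Left, median over sites of the deviation of log2(TPM + 1) from the mean of the site over the 4 libraries, by position relative to the gene end, with 1 point per library (dark, Col0; orange, cpsf70; circles, replicate 1; squares, replicate 2). Right, percent of tested sites called higher or lower in cpsf70 by limma in each position class. Within 300 nt of the end the points pair by replicate number. Over 1000 nt before the end both cpsf70 points lie above both Col0 points. Calls, some of which rest on 1 library, are most frequent over 1000 nt before the end (5.06%) and outside genes (5.23%).

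Abundance entered the class furthest from the gene end. Among its sites in the highest tercile of level, 13 rose and 39 fell with a median change of -0.02, while the middle tercile had a median of 0.30 and the lowest 0.15. Between 300 and 1000 nt the medians were 0.16, 0.30 and 0.15 from the lowest to the highest tercile. The most abundant sites of each class were mostly not called. AT5G66675 held the largest, 1993 nt before the gene end, at 18749 and 39146 TPM in Col0 and at 19423 and 20942 TPM in cpsf70. UGT72E2, a glucosyltransferase of phenylpropanoid metabolism, had a site 561 nt before its end at 16310 and 20752 TPM in Col0 and at 9016 and 20008 TPM in cpsf70. For AT5G66675 both cpsf70 values lay between those of Col0, and for UGT72E2 cpsf70 replicate 1 lay below both Col0 libraries and replicate 2 between them. A site of the cytochrome P450 gene CYP96A4 was at 6.64 and 11576 TPM in Col0 and at 5405 and 11.48 TPM in cpsf70, so 1 library of each genotype was high and the other low.

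A share of tags far from the gene end was also computed for each library. Sites more than 300 nt before the end held 31.6% and 40.1% of gene tags in Col0 and 29.2% and 37.3% in cpsf70. The libraries interleaved, and the difference of -2.55 percentage points was well inside their spread (exact permutation test, 2-sided p = 0.667, where 0.333 is the smallest p that 2 against 2 libraries allow). A few sites carried much of this share: 84 sites with a mean of at least 1000 TPM held 35.3% to 43.2% of the level of each library. Without them the shares were 25.6% and 29.8% in Col0 and 25.4% and 31.5% in cpsf70. Counting each gene once gave another order. In the 1329 genes with sites on both sides of the 300 nt line, the median share of far sites was 23.4% and 23.6% in Col0 and 26.03% and 33.3% in cpsf70. The share was higher in cpsf70 in 992 of these genes (74.6%), by a median of 3.99 percentage points over the 1329 genes. Both cpsf70 medians exceeded both Col0 medians, by more in replicate 2 than in replicate 1 (exact permutation test, p = 0.333).

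Site use was compared in the 1966 genes with 2 or more sites, as the log2 ratio of the distal to the proximal of the 2 most abundant sites. The proximal site held a larger share of its pair in cpsf70 in most genes. The median proximal share was 26.5% and 26.9% in Col0 and 29.5% and 34.3% in cpsf70, so cpsf70 replicate 1 lay closer to Col0 than to its own replicate (exact permutation test, p = 0.333). The ratio was lower in cpsf70 in 1408 genes (71.6%), and its median change was -0.40. Without cpsf70 replicate 2 the ratio was lower in 61.7% of genes and the median change -0.23, and without cpsf70 replicate 1 it was -0.57. In 870 genes (44.3%) the genotypes did not overlap and the change was toward the proximal site. By limma with Benjamini-Hochberg adjustment 11 genes (0.56%) shifted to their proximal site and 0 (0%) to their distal site. At an unadjusted p below 0.05 the counts were 288 and 71, and with robust variance estimates 1 gene was called toward the distal site. The levels of the paired sites differed mainly at the proximal one: the median change of the proximal site was 0.36 and that of the distal site 0.01. With at least 3 TPM in all 4 libraries, a limit chosen after seeing the data, the median change of the ratio was -0.42. The part of the unlike cluster widths of the genotypes in this change was not tested.

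The size of the difference varied with the distance between the paired sites. The median change was -0.27 for the 189 pairs spaced under 100 nt, -0.29 at 100 to 200 nt, -0.48 at 200 to 500 nt, -0.60 at 500 to 1000 nt and -0.29 for the 530 pairs over 1000 nt apart. Of the 364 pairs at 500 to 1000 nt, 80.2% had a lower ratio in cpsf70. Their median proximal share was 15.1% and 15.2% in Col0 and 19.0% and 24.8% in cpsf70. The Col0 libraries nearly coincided there and both cpsf70 libraries were higher.

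Level also separated the pairs. In the lowest tercile of pair level the median change was -0.22, with proximal shares of 40.3% and 42.3% in Col0 and 43.7% and 47.5% in cpsf70. In the highest tercile it was -0.62, with shares of 8.34% and 7.12% in Col0 and 9.99% and 15.4% in cpsf70. The highest tercile consisted largely of genes whose distal site was the stronger: 547 such genes had a median change of -0.69. In the 109 genes of that tercile with the stronger site proximal the median was 0.16, in the opposite direction. No test of these differences between classes was made, because genes of a library are not independent.

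**Figure D2:**
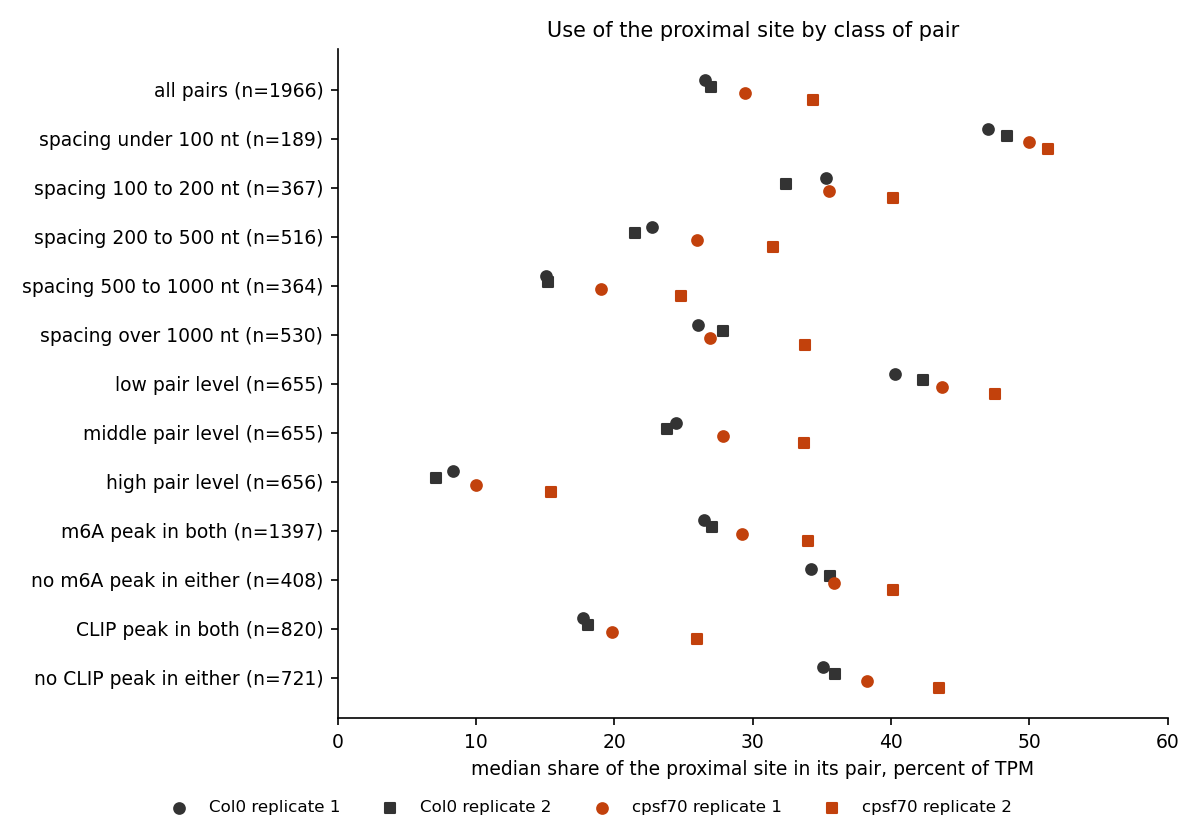
Median share of the proximal site in its pair, in percent of the summed TPM of the pair, for each library (dark, Col0; orange, cpsf70; circles, replicate 1; squares, replicate 2), over all 1966 pairs and by spacing, level and peaks in the last 500 nt of the gene. The cpsf70 points lie to the right of both Col0 points in each class shown except pairs over 1000 nt apart, where cpsf70 replicate 1 lies between the Col0 libraries.

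The authors' peak lists place each gene by m6A, from 14-day Col0 seedlings, and by binding of FLAG-tagged CPSF70, from CLIP (crosslinking and immunoprecipitation) of an overexpression line. A gene counted as marked where both replicates have a peak in its last 500 nt. The 1397 genes with m6A had a median change of site use of -0.39, and the 408 without a peak in either replicate had -0.34. The 820 genes with a CLIP peak in both replicates had a median of -0.51 and the 721 without one -0.31. Genes with CLIP peaks were also the more abundant, at a median of 69.9 TPM per pair against 30.3 TPM. Within terciles of pair level the medians with and without CLIP were -0.70 and -0.38 in the highest, -0.35 and -0.41 in the middle and -0.24 and -0.18 in the lowest tercile, so the order turned in the middle tercile. The part of level in the pooled difference was not tested further.

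Among the 11 genes with a called change of site use, the largest was in HOG1, the S-adenosylhomocysteine hydrolase that clears the product of methyl transfer reactions, methylation of RNA included. Its distal site, chr4:8056925-8057074, was at 442 and 380 TPM in Col0 and at 22.1 and 14.6 TPM in cpsf70. Its proximal site was at 63.8 and 35.7 TPM in Col0 and at 122 and 134 TPM in cpsf70. The distal site was high in both Col0 libraries and low in both cpsf70 libraries, and the proximal site the reverse. The ratio changed by -5.83 ± 0.43 (SE; limma, adjusted p = 0.023), and the proximal share was 12.6% and 8.58% in Col0 and 84.6% and 90.2% in cpsf70. The call was lost without Col0 replicate 2 (adjusted p = 0.139). The largest Col0 cluster of the distal site, at 409 and 354 TPM in the Col0 tables, has no overlapping cluster in the cpsf70 tables, where the nearest cluster lies 2 nt away. The proximal site of HOG1 was 728 nt wide and the distal site 150 nt, with few bases in between. Joining only clusters that overlap or touch gave a change of 0.40. The gap of 2 nt then keeps the large Col0 cluster apart from its cpsf70 neighbour, and sites listed in Col0 alone are not tested. The value of 0.40 is therefore not a reversal in the same pair.

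The other calls among the 10 largest also had a distal site that was lower in both cpsf70 libraries than in both Col0 libraries. PRPL28, a protein of the large subunit of the plastid ribosome, had its distal site at 199 and 162 TPM in Col0 and at 11.8 and 10.3 TPM in cpsf70, and its proximal site at 13.2, 4.77, 11.2 and 23.3 TPM in the same order. Its proximal share was 6.23% and 2.86% in Col0 and 48.6% and 69.3% in cpsf70 (change -4.83 ± 0.56, limma, adjusted p = 0.036). The fall of the distal site was thus larger than any gain at the proximal one.

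For PKP-BETA1, a beta subunit of the plastid pyruvate kinase, the proximal site was the stronger in all 4 libraries. It was at 137 and 105 TPM in Col0 and at 159 and 134 TPM in cpsf70, while the distal site was at 66.0 and 55.1 TPM in Col0 and at 3.18 and 3.20 TPM in cpsf70. Its proximal share was 67.5% and 65.5% in Col0 and 98.0% and 97.7% in cpsf70. In GPX2, a glutathione peroxidase, the distal site was at 103 and 85.0 TPM in Col0 and at 12.9 and 9.52 TPM in cpsf70, and the proximal share was 5.56% and 4.17% in Col0 and 36.7% and 53.2% in cpsf70. PMEPCRA, a pectin methylesterase of the cell wall, had proximal shares of 13.5% and 8.37% in Col0 and of 65.3% and 69.4% in cpsf70, with the proximal site 1544 nt before the gene end. MYBR1, a MYB transcription factor, had 19.4% and 15.5% in Col0 and 77.8% and 72.6% in cpsf70. The adjusted p of the 11 calls lay between 0.023 and 0.050 by limma, and none was below 0.05 without Col0 replicate 2.

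In 9 of the 11 called genes (81.8%) a largest Col0 cluster of the pair is overlapped by no cpsf70 cluster, against 80 of all 1966 pairs (4.07%). With sites limited to those whose largest cluster overlaps a cluster of both tables of the other genotype, 1 of the 11 genes could be tested and 0 genes were called toward the proximal site. Under that limit the unadjusted p was below 0.05 in 243 genes toward the proximal and in 59 toward the distal site. The median change over all pairs was nearly the same, at -0.39, over the 1883 pairs without such a cluster in either genotype.

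No gene passed the threshold toward the distal site, and the 5 with the smallest p in that direction included a regulator of hormone response. MYC2, the bHLH transcription factor that drives jasmonate responses, had its proximal site at 34.3 and 17.0 TPM in Col0 and at 9.30 and 8.54 TPM in cpsf70, and its distal site at 23.0 and 17.6 TPM in Col0 and at 38.6 and 34.5 TPM in cpsf70. Its proximal share was 59.9% and 49.2% in Col0 and 19.4% and 19.8% in cpsf70, with no overlap (change 2.18 ± 0.37, limma, adjusted p = 0.083). The proximal site of MYC2 lay 2709 nt before the gene end and the distal site 729 nt. The coactivator MBF1B had 77.95% and 81.4% in Col0 and 48.1% and 47.8% in cpsf70, with its distal site at 26.1, 19.4, 92.4 and 65.7 TPM in the same order. AT5G66050 had the largest change of this direction among the 5, 4.19 with an adjusted p of 0.075 by limma. Its proximal site was at 52.4 and 57.2 TPM in Col0 and at 1.16 and 3.61 TPM in cpsf70. That site was 4 nt wide and lay 2066 nt before the gene end. In APK, an adenosine-5'-phosphosulfate kinase, and in emb2726 the largest Col0 cluster of the proximal site has no overlapping cpsf70 cluster.

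**Figure D3:**
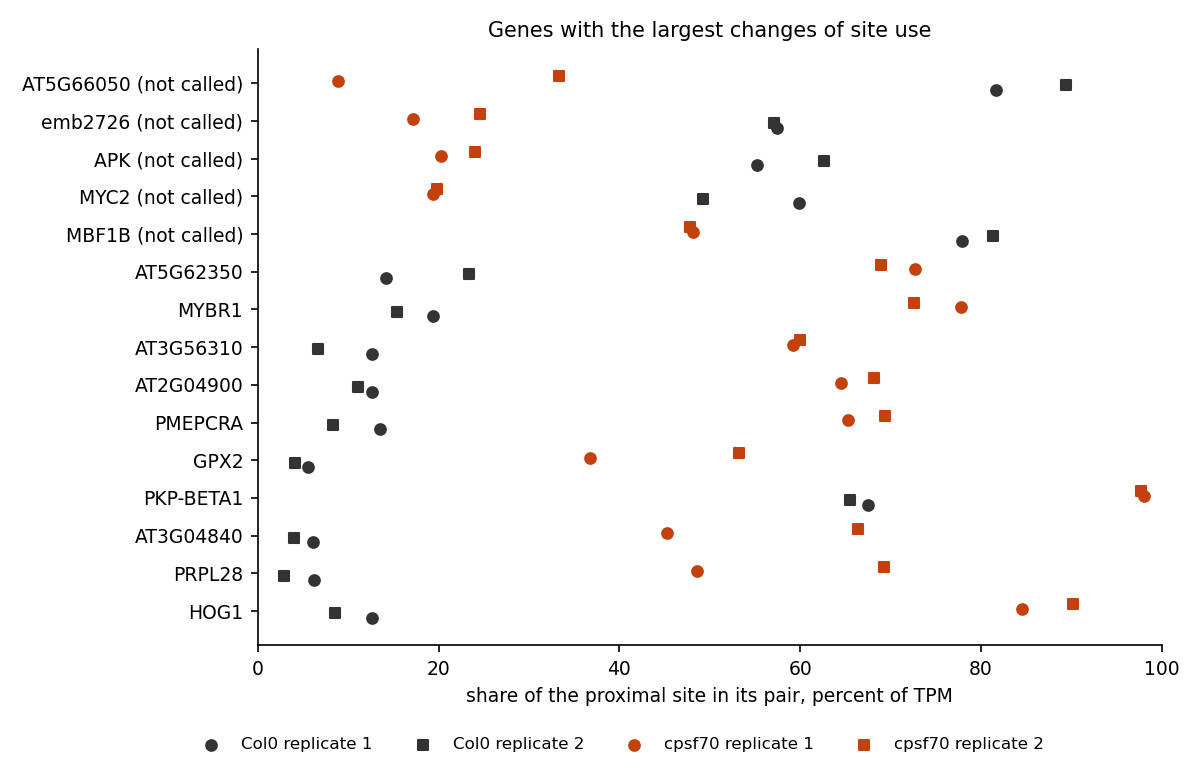
Share of the proximal site in its pair, in percent of TPM, in each library (dark, Col0; orange, cpsf70; circles, replicate 1; squares, replicate 2) for the 10 largest called changes and for the 5 genes with the smallest p toward the distal site, which are not called. HOG1 goes from 12.6% and 8.58% in Col0 to 84.6% and 90.2% in cpsf70, and MYC2 from 59.9% and 49.2% to 19.4% and 19.8%.

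Genes of photosynthesis had a lower distal to proximal ratio in cpsf70 almost throughout, at a small share of their tags and with no pair of theirs called. Of the 46 pairs in the lists of light harvesting, photosystem subunits and the Calvin cycle, 44 had a lower ratio, with a median change of -0.82. Over all pairs 71.6% had a lower ratio with a median of -0.40, and over the 547 abundant pairs with the stronger site distal it was 89.0% with a median of -0.69. The genotypes did not overlap toward the proximal site in 26 of the 46, beside 44.3% of all pairs. No pair of these lists passed limma after adjustment, and 6 had an unadjusted p below 0.05, beside 359 of all 1966 (18.3%). RBCS1A, a small subunit of Rubisco, had a proximal share of 3.61% and 3.05% in Col0 and of 4.87% and 7.51% in cpsf70. LHCB3, a light-harvesting protein of photosystem II, went from 2.83% and 2.21% to 4.64% and 8.52%, and PSAH2, a subunit of photosystem I, from 0.613% and 0.881% to 2.09% and 3.23%. In each of these genes the large majority of tags lay in the distal site in every library. The proximal share was highest in cpsf70 replicate 2. Joined sites can be long here: the distal site of RBCS1A was 556 nt wide. The genotypes overlapped in other abundant members, such as LHCB5, a minor antenna protein of photosystem II, at 1.57% and 0.951% in Col0 and 1.43% and 2.76% in cpsf70. PSBR, a subunit of photosystem II, had 3.01% and 1.73% in Col0 and 2.24% and 5.08% in cpsf70. Over the list of photosystem subunits the median share was 3.26% and 2.14% in Col0 and 3.06% and 7.13% in cpsf70, so cpsf70 replicate 1 lay between the Col0 libraries.

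Gene totals of the same lists stayed near the level of Col0. Of 65 totals, 0 rose and 1 fell, HCEF1, the plastid fructose-1,6-bisphosphatase, and 2 had an unadjusted p below 0.05. HCEF1 was at 308 and 232 TPM in Col0 and at 96.6 and 79.8 TPM in cpsf70, a change of -1.60 (limma, adjusted p = 0.016). Its largest Col0 cluster is among those with no overlapping cpsf70 cluster, and the adjusted p lay between 0.046 and 0.286 with 1 library left out. The light-harvesting gene CAB1 had the largest positive change of the lists, at 3807 and 2771 TPM in Col0 and at 7531 and 6550 TPM in cpsf70 (1.11, adjusted p = 0.318), with no overlap. CAB1 has near-identical neighbours, CAB2 and CAB3, between which the authors' mapping could have divided reads.

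Ribosomal protein genes showed the same direction of site use. Of 20 pairs of the cytosolic ribosome 16 had a lower ratio in cpsf70 (median -0.69). Of 14 pairs of the plastid ribosome 13 did (median -0.96), and PRPL28 was the only call of the 2 lists. A lower ratio was seen in 71.6% of all pairs and in 81.4% of the highest tercile of pair level (median -0.62). By limma, 2 cytosolic and 6 plastid pairs had an unadjusted p below 0.05. In the cytosolic list the genotypes overlapped, with a median proximal share of 6.15% and 3.10% in Col0 and 5.07% and 10.9% in cpsf70. Among its abundant members, RPL23AA had 3.94% and 1.43% in Col0 and 3.49% and 7.32% in cpsf70, and STV1 had 19.5%, 16.0%, 16.4% and 21.8% in the same order, both with overlap. RPS15A had a proximal share of 2.95% and 2.48% in Col0 and of 5.71% and 10.8% in cpsf70. The exception among the most abundant plastid genes was RPL12-C, at 2.60%, 3.003%, 1.86% and 3.52%, where the genotypes overlapped. Totals of the cytosolic ribosome were mostly somewhat higher in cpsf70, in 24 of 29 genes with a median of 0.29, against 0.02 over all totals, and 0 were called or had an unadjusted p below 0.05. PRPL28 was the one called total of the plastid list, at 212 and 167 TPM in Col0 and at 23.0 and 33.6 TPM in cpsf70, a change of -2.71 (limma, called with any library left out, adjusted p = 0.061 after rescaling). Its largest Col0 cluster does overlap a cpsf70 cluster.

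Housekeeping lists also had negative medians, some closer to 0 than the -0.40 of all pairs. Of 15 pairs of ubiquitins and proteasome subunits 13 had a lower ratio (median -0.94), of 13 chaperone pairs 12 (-0.68), of 14 tubulin and actin pairs 11 (-0.63) and of 8 aquaporin pairs 5 (-0.49). The vacuolar proton pump had a lower ratio in 2 of 4 pairs (-0.28) and glycolysis in 5 of 9 (-0.35). These lists and the aquaporins were thus below the 71.6% of all pairs, beside 81.4% in the highest tercile of pair level. By limma none of the first 4 lists held a call after adjustment. An unadjusted p below 0.05 was seen in 4, 3, 2 and 3 of their pairs, beside 18.3% of all pairs. The vacuolar list had 0 of either. Glycolysis held 1 call, PKP-BETA1, the largest change of that list, and 3 pairs with an unadjusted p below 0.05. The polyubiquitin gene UBQ10 had a proximal share of 16.1% and 7.41% in Col0 and of 18.4% and 34.3% in cpsf70, so the genotypes were apart by little and cpsf70 replicate 2 by much. UBQ3 had 6.53% and 3.89% in Col0 and 13.3% and 24.4% in cpsf70. HSC70-1, a cytosolic chaperone, had 5.68% and 3.41% in Col0 and 9.22% and 16.4% in cpsf70. EIF4E, which binds the cap of messenger RNA, had 14.2% and 8.62% in Col0 and 23.5% and 36.6% in cpsf70, within a list of translation factors whose median of -0.27 was closer to 0 than that of all pairs.

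Readers of m6A were themselves in this comparison. A pair of sites was compared in 3 of their genes, the YTH proteins ECT2, ECT3 and ECT8, and all 3 had a lower ratio in cpsf70 (median -0.83; 0 called by limma, 1 with an unadjusted p below 0.05). ECT3 had a proximal share of 28.4% and 36.4% in Col0 and of 48.0% and 55.0% in cpsf70, with no overlap. ECT2 had 16.4% and 9.32% in Col0 and 14.8% and 27.1% in cpsf70, and here the genotypes overlapped. The 8 totals of m6A factors and the 11 totals of polyadenylation factors held no call by limma, with 0 and 1 at an unadjusted p below 0.05.

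Of the lists below, the S-adenosylmethionine cycle and the cell wall each held 1 called pair, HOG1 and PMEPCRA. The nitrate and clock lists held 0. By limma, an unadjusted p below 0.05 was seen in 3 of 7 and 7 of 16 pairs of the first 2 lists. For nitrate and clock it was 2 of 8 and 2 of 6. Over all pairs it was 18.3%. A lower ratio was seen in 71.6% of all pairs and in 81.4% of the highest tercile of pair level. ATMS1, GSR2 and EXT3 were not called. The S-adenosylmethionine cycle had 6 of 7 pairs with a lower ratio and the lowest median of the lists with at least 3 pairs (-1.27), and -1.05 over the 6 pairs without HOG1's unlisted cluster. ATMS1, a methionine synthase, had a proximal share of 3.25% and 3.14% in Col0 and of 7.74% and 10.1% in cpsf70. All 8 pairs of the nitrate list had a lower ratio (median -0.78), glutamine synthetase GSR2 among them at 3.89%, 4.08%, 6.87% and 10.6%. All 6 clock pairs did too (median -0.86). Of 16 cell wall pairs 15 had a lower ratio (median -0.60), with the extensin EXT3 at a proximal share of 45.9% and 54.2% in Col0 and 73.4% and 70.6% in cpsf70.

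Jasmonate genes were the one list of at least 3 pairs with a positive median, 0.59 over 5 pairs, of which 2 had a lower ratio. By limma 0 of these pairs were called and 4 had an unadjusted p below 0.05, beside 18.3% of all pairs. The list divided by gene: MYC2 stood on the distal side, and AOC2, an allene oxide cyclase of jasmonate synthesis, on the proximal side with shares of 16.2% and 15.1% in Col0 and 29.2% and 31.0% in cpsf70. COI1, the jasmonate receptor, had 17.2% and 9.77% in Col0 and 30.1% and 28.0% in cpsf70. Of 19 jasmonate totals 0 were called by limma and 6 had an unadjusted p below 0.05. JAZ1, a repressor of MYC2, was at 6.69 and 4.93 TPM in Col0 and at 22.0 and 12.6 TPM in cpsf70 (1.39, adjusted p = 0.072).

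**Figure D4:**
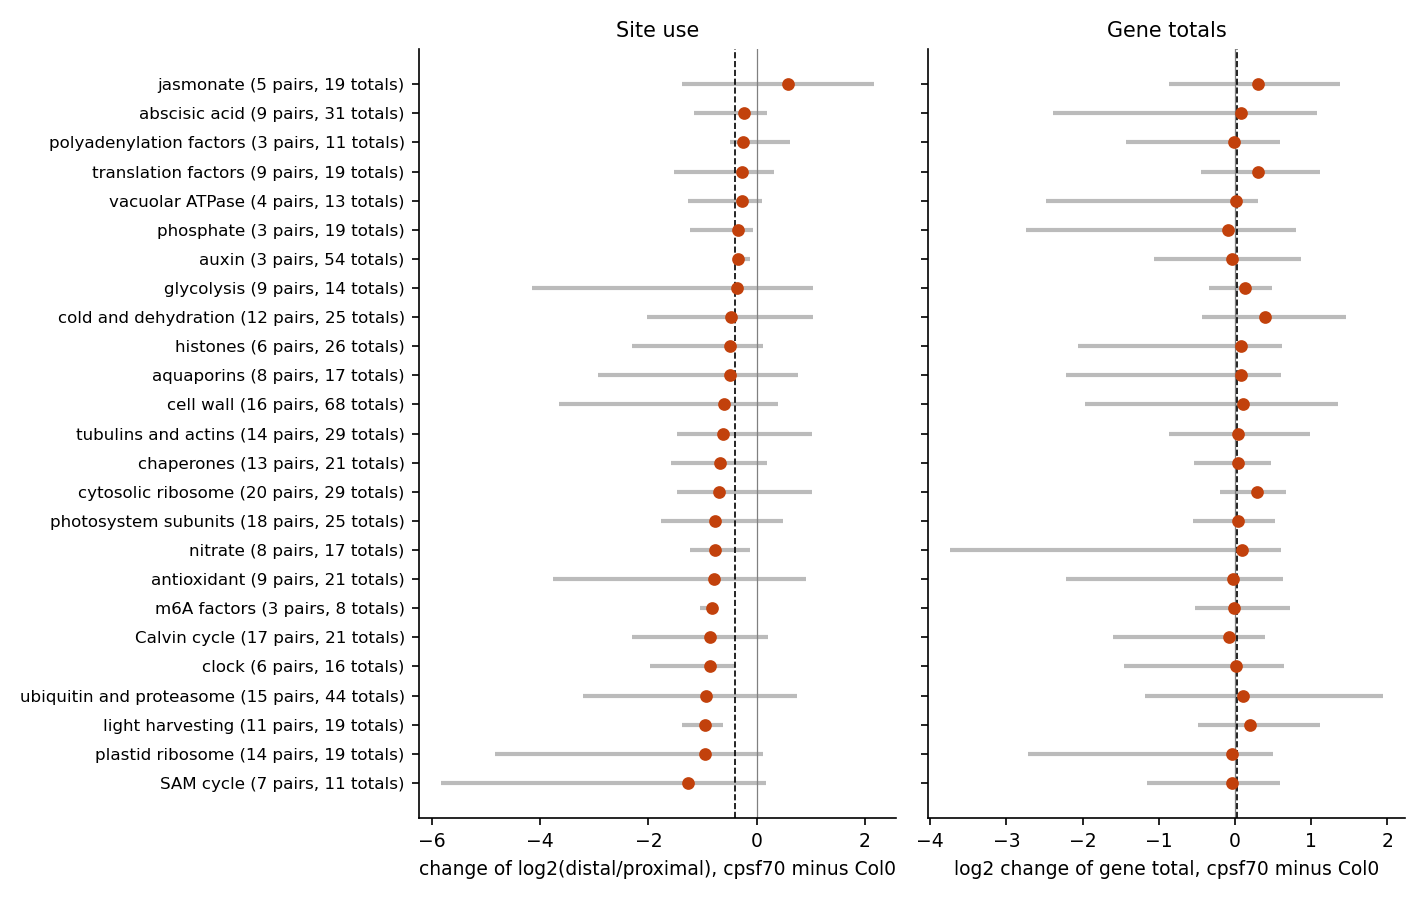
Median (orange point) and range (grey line) of the change of site use, log2(distal/proximal), at left and of the log2 change of gene totals at right, cpsf70 minus Col0, for the function lists with at least 3 pairs. Dashed lines mark the medians of all genes, -0.40 for site use and 0.02 for totals. Only the jasmonate list has a positive median of site use (0.59), while the medians of totals stay within 0.40 of 0.

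Gene totals gave few rises and more falls. By limma with adjusted p below 0.05, 22 totals rose (0.225%) and 155 fell (1.58%) of 9794, which is 1.81% called. One standard error of 0.43 applied to every total, so the p of a total also depended on its change alone. The genotypes did not overlap in 14 of the rises and 134 of the falls, against 36.1% of all totals. With any library left out, 1 rise and 48 falls were still called, and after rescaling by median ratios 3 totals rose and 53 fell. The stable rise was AT3G25510, which has a single site. Summing every listed site of a gene in place of those in all 4 tables left the median change of the totals that fell at -1.97 against -2.05, and for 8 of the 155 the change came to less than 50% of its size.

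Among the totals that rose were FER1, ASN1 and COR15B. FER1, a ferritin that stores iron in plastids, was at 28.1 and 25.6 TPM in Col0 and at 103 and 89.3 TPM in cpsf70, with close replicates (1.80, limma, adjusted p = 0.0029). ASN1, an asparagine synthetase, was at 58.1 and 36.02 TPM in Col0 and at 176 and 119 TPM in cpsf70 (1.64, adjusted p = 0.012). COR15B, a cold-regulated protein of the chloroplast, was at 36.7 and 16.9 TPM in Col0 and at 80.2 and 61.3 TPM in cpsf70 (1.45, adjusted p = 0.046). All 3 had both cpsf70 libraries above both Col0 libraries, and all 3 lost the call without Col0 replicate 2 (adjusted p = 0.067 for FER1, 0.483 for ASN1 and 1 for COR15B). After rescaling FER1 was still called and ASN1 and COR15B were not. COR15B belonged to a list of cold and dehydration genes in which 21 of 25 totals were positive with a median of 0.40, 1 being called and 5 having an unadjusted p below 0.05. Over all 9794 totals 5111 were positive (52.2%), 1.81% were called and 675 (6.89%) had an unadjusted p below 0.05. The dehydrin ERD10 of that list was at 303 and 236 TPM in Col0 and at 548 and 482 TPM in cpsf70 (0.94, adjusted p = 0.584).

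Further totals that rose were PARVUS, GAE1 and HAP6. PARVUS, a glycosyltransferase of xylan synthesis, was at 56.5 and 14.2 TPM in Col0 and at 103 and 209 TPM in cpsf70. GAE1, an epimerase that makes a pectin precursor, was at 9.56 and 5.54 TPM in Col0 and at 21.2 and 28.6 TPM in cpsf70. Neither was called without Col0 replicate 2 or after rescaling. HAP6, which entered the list of ubiquitin and proteasome genes through its synonym RPN2 and is a ribophorin, was at 65.2 and 47.9 TPM in Col0 and at 50.3 and 935 TPM in cpsf70. Its rise of 1.95 rested on cpsf70 replicate 2 and was -0.15 without it.

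The totals that fell in the function lists came 1 or 2 to a list. GLU1, the ferredoxin-dependent glutamate synthase of nitrogen assimilation in leaves, was at 233 and 183 TPM in Col0 and at 16.7 and 12.5 TPM in cpsf70, a change of -3.74. PHT4;1, a phosphate transporter of the plastid, was at 41.2 and 41.9 TPM in Col0 and at 5.66 and 5.09 TPM in cpsf70 (-2.74). VAG2, a subunit of the vacuolar proton pump, was at 30.3 and 26.8 TPM in Col0 and at 4.63 and 3.94 TPM in cpsf70 (-2.48). In each the replicates lay close together and the genotypes far apart, and each was called with any library left out (limma).

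Further falls were in the lists of aquaporins, antioxidant enzymes, splicing factors, histones and the cell wall. PIP1A, an aquaporin of the plasma membrane, was at 243 and 193 TPM in Col0 and at 48.1 and 44.0 TPM in cpsf70 (-2.21). GPX2 was at 109 and 88.7 TPM in Col0 and at 20.3 and 20.4 TPM in cpsf70 (-2.22). SR30, a serine-arginine-rich splicing factor, was at 34.7 and 29.2 TPM in Col0 and at 6.69 and 7.22 TPM in cpsf70 (-2.05). All 3 were called with any library left out. HTA13, a histone H2A, was at 26.1 and 20.0 TPM in Col0 and at 5.92 and 3.78 TPM in cpsf70, and EXPA1, an expansin that loosens cell walls, at 47.5, 43.4, 16.7 and 6.89 TPM. EXPA1 was not called after rescaling, and both lost the call without cpsf70 replicate 2 (adjusted p = 0.055 and 0.360).

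The calls on PR1, PCL1 and ABI2 were lost after rescaling. PR1, a pathogenesis-related protein and marker of salicylic acid defence, was at 15.9 and 11.1 TPM in Col0 and at 3.60 and 4.76 TPM in cpsf70, with no overlap. Its change was -1.47 (limma, adjusted p = 0.041), and with 1 library left out the adjusted p lay between 0.074 and 0.562. PCL1, a MYB factor of the evening complex of the clock, was at 18.2 and 10.2 TPM in Col0 and at 5.15 and 3.61 TPM in cpsf70 (-1.46, limma, adjusted p = 0.045), and its change was -0.58 when every listed site of the gene was summed. ABI2, a protein phosphatase that acts against abscisic acid, was at 5.53 and 26.2 TPM in Col0 and at 0.601 and 3.02 TPM in cpsf70. Its change of -2.39 was -1.36 without Col0 replicate 2. Outside the lists, the alternative oxidase AOX2 was at 154 and 233 TPM in Col0 and at 2.32 and 31.4 TPM in cpsf70, a call lost after rescaling, and UNE5, a protein disulfide isomerase, at 77.5 and 74.5 TPM in Col0 and at 5.41 and 3.45 TPM in cpsf70. When every listed site was summed the change of UNE5 went from -3.85 to -1.87.

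The listing of clusters moved with the falls. Of the 217 sites that fell, 81 (37.3%) have a largest Col0 cluster that no cpsf70 cluster overlaps, and of the 84 that rose 0 do, against 2.08% of all sites. Among the 52 falls called with any library left out it is 41 (78.8%). Gene totals gave the same picture, with 65 of 155 falls (41.9%) and 37 of the 48 most stable ones (77.1%) against 2.39% of all totals. GLU1, PHT4;1, PIP1A, GPX2, SR30, HTA13, EXPA1, HCEF1, PCL1 and UNE5 are among them, and PRPL28, VAG2, PR1, ABI2 and AOX2 are not. In GLU1 the cluster at chr5:1138379-1138427 held 217 and 167 TPM in the Col0 tables, and the nearest cpsf70 cluster lay 3 nt away. Over the 81 sites the nearest cpsf70 cluster lay a median of 6 nt away. With sites limited to those whose largest clusters overlap between the genotypes, 50 sites rose and 114 fell, and 79 totals fell. That limit removed the site of the unlisted cluster, which held most of the Col0 level of PIP1A, GPX2, HCEF1 and PMEPCRA. The remaining sites of these genes changed by 0.51, 0.80, 0.42 and 0.72, which does not measure the whole totals. Joining only overlapping or touching clusters left the largest Col0 clusters of GLU1, PHT4;1, EXPA1 and PMEPCRA apart from their cpsf70 neighbours. These lay 3, 12, 11 and 6 nt away. Sites listed in Col0 alone were not counted, and what remained of the totals changed by 0.36, 0.36, 0.37 and 0.14. The limit to overlapping clusters was chosen after the data had been seen.

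**Figure D5:**
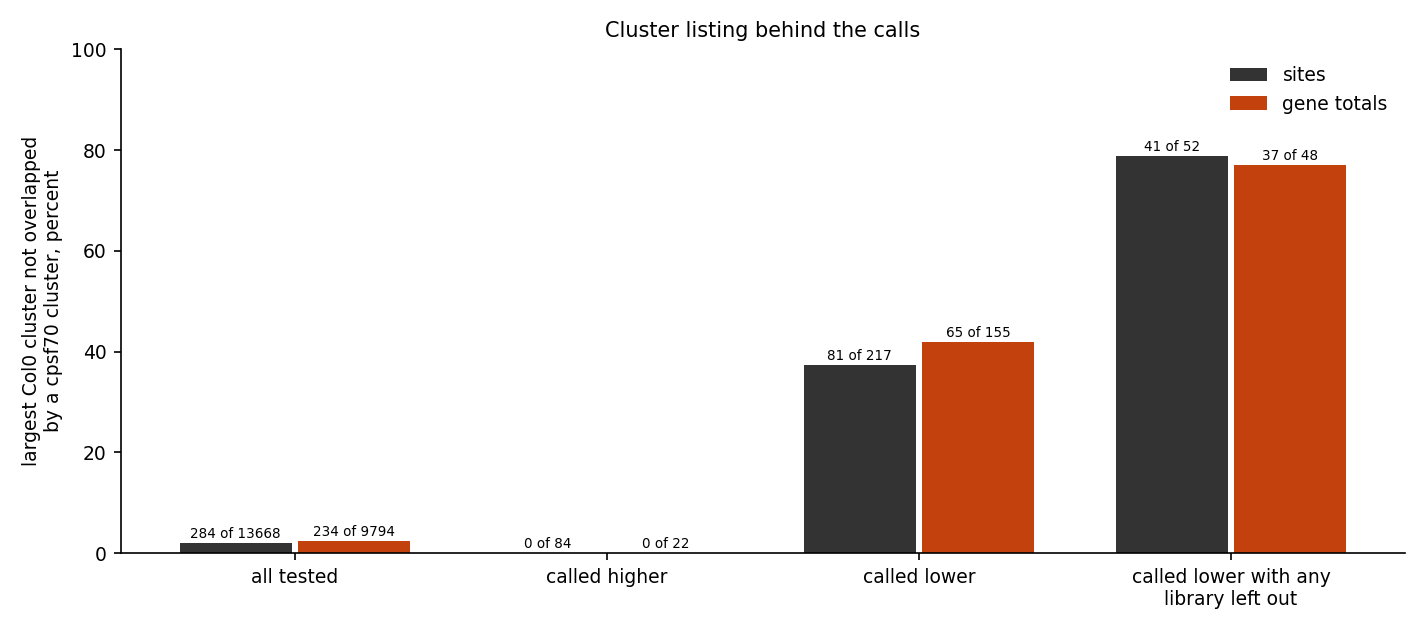
Percent of sites (dark bars) and gene totals (orange bars) in which the largest cluster of a Col0 table is overlapped by no cluster of a cpsf70 table, among all tested, those called higher, those called lower, and those called lower with any library left out; the numbers above the bars are counts. The share is 2.08% of all sites, 37.3% of the sites that fell and 78.8% of those called lower with any library left out.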

How the data were processed

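Per library, the authors deposited a table of poly(A) clusters in TPM, peak tables of m6A and CLIP with a fold enrichment per peak, and for the series an RNA-seq table in FPKM, per the file headers. Per the submitters' processing notes, MACS2 2.2.5, HISAT2 2.1.0 and cutadapt 1.18 were used with TAIR10. Positions are those of the authors' files. Peaks served as present or absent only.

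Gene spans and symbols came from RefSeq, assembly TAIR10.1. Gene strand was inferred from the tags at each end of the span, or from tags inside it when 90% or more were on one strand, for 15585 genes. Sites up to 200 nt beyond a gene end counted for it.

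Genotypes were compared with limma 3.58.1 (R 4.3.3, eBayes, 2-sided, Benjamini-Hochberg adjustment over all features, threshold 0.05) on log2(TPM + 1), which understates changes of low values, after a test on simulated data. Fits used genotype alone, without a block.

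The members and function lists were chosen with earlier results of these data known. Named are the 10 largest changes per direction among called features without overlap (or the 5 of smallest p), 3 genes per list (the 2 most abundant and the largest change), the 3 most abundant sites per position class, and list members called. MYC2 and further list members were named after their values were seen.

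Sequence motifs were not analysed here.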

Additional observations from a re-analysis of the deposited data

How the results depend on the processing

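Called sites, given as higher and lower in cpsf70, numbered 1 and 33 after rescaling by median ratios, 268 and 342 with 3 TPM added in place of 1, 2506 and 2297 with absent values at 0, and 50 and 114 with overlapping largest clusters. A mean of at least 10 TPM left 51 higher, and robust variances gave 235 higher. Called totals, in the same order, numbered 3 and 53 after rescaling, and 326 and 1120 with absent values at 0. Totals lower numbered 80 with touching clusters joined and 79 with overlapping largest clusters, and robust variances gave 38 higher. Site use toward distal and proximal gave 190 and 311 calls with absent values at 0, 12 and 27 with touching clusters joined, and 1 and 23 with robust variances. Toward proximal there were 2 calls at a mean of at least 10 TPM, 23 with at least 3 TPM in all libraries and, by limma, 0 with overlapping largest clusters, where 243 genes toward proximal and 59 toward distal had an unadjusted p below 0.05. The median change of site use was -0.57 at a mean of at least 10 TPM and -0.69 with absent values at 0. Leaving out 1 library gave 25 to 121 sites higher and 114 to 225 lower, 16 to 25 totals higher and 88 to 147 lower, 0 to 6 genes toward distal and 0 to 34 toward proximal, a median change of -0.57 to -0.23, and a difference in the far share of -6.78 to 1.69 percentage points. The cause was not tested; fewer features enter where sites are limited. Single values that turned sign were the use of HOG1 (0.40, touching clusters) and of PMEPCRA (3.27, absent values at 0). The total of HAP6 did so at 3 TPM in all libraries (-0.16) and lay between -0.15 and 4.04 with 1 library left out. Totals also turned for GLU1, PHT4;1, EXPA1 and PMEPCRA with touching clusters (0.36, 0.36, 0.37 and 0.14). With overlapping largest clusters those of HCEF1, PIP1A, GPX2 and PMEPCRA did (0.42, 0.51, 0.80 and 0.72). In HOG1 and in the totals other than HAP6, these settings left out the largest Col0 cluster. Their values are thus of the clusters that remained and not of the same site or total. The settings of 3 TPM in all libraries, of overlapping largest clusters and of omitting sites of 1000 TPM were chosen after seeing the data.

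Replicate numbers are shared by the genotypes, but no label says that they pair libraries. The differences between replicates correlated at r = 0.198 across sites. With the replicate number as a block, 0 sites were higher and 0 lower, 0 totals higher and 1 lower, and 16 genes changed toward distal and 63 toward proximal use; 2 pairs leave 1 residual degree of freedom.

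The alternative of an annotated gene strand was not run. At 9.41 to 18.3 reads per 3 TPM, low sites rest on few reads.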

Other observations

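Sites listed for 1 genotype only stood outside the comparison, which needs all 4 tables. At a level of at least 10 TPM in both libraries of a genotype, 253 sites were listed in Col0 only and 26 in cpsf70 only. Of the Col0 sites 101 lay within 150 nt before the gene end, 18 at 150 to 300 nt, 32 at 300 to 1000 nt, 45 further before it, 8 beyond it and 49 outside genes. Of the cpsf70 sites 3 lay within 150 nt before the end, 1 at 150 to 300 nt, 7 at 300 to 1000 nt, 8 further before it and 7 outside genes. The tables have different listing rules, so these counts do not compare the genotypes. The most abundant of the Col0 sites was in AT2G36670, 2963 nt before the gene end, at 17847 and 20733 TPM. A site of PEX3-1, a gene of peroxisome formation, was at 43.5 and 5841 TPM in the Col0 libraries. The most abundant of the cpsf70 sites in a gene was in AT3G14870, 430 nt before its end, at 312 and 293 TPM.

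Gene totals were also counted by m6A class. Of 6708 genes with an m6A peak in both replicates over their last 500 nt, 5 rose and 78 fell by limma (1.24% called). Of 2528 genes with none, 16 rose and 67 fell (3.28%), and over all totals 1.81% were called. The median levels of the classes were 15.5 and 13.8 TPM, and neither the difference between the classes nor the part of level in it was tested.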
